A study of Mus musculus with 4 samples.

Results

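Transcripts of 10 intestinal stem cell and Wnt target genes, Lgr5, Ascl2, Olfm4, Smoc2, Prom1, Bmi1, Msi1, Rnf43, Znrf3 and Axin2, were examined in mouse small intestine and colon by SOLiD RNA-Seq. The genes were taken by symbol, and all 10 were found among the 21138 genes into which the RefSeq exon blocks of the mm9 assembly were joined. The rule that chose them uses no read value, but these genes and the lists below were drawn up with earlier results of these data known. The RNA came from frozen total tissue of C57BL/6 mice aged 9 to 10 weeks and kept free of specific pathogens, with no treatment or engineered allele given for any group, and the study's methods place the samples in jejunum and distal colon. One pair of libraries (small intestine and colon) was made from polyadenylated RNA by oligo-dT primed SMART cDNA synthesis and PCR, and is called the cDNA pair. The other pair is labelled as ribosomal RNA-depleted and was made from fragmented RNA with a kit that keeps the strand. There was 1 library per tissue and protocol, and the labels do not tie a library to an animal, so there are no replicates and no p-values. The study describes its small intestine and colon data as coming from the same individuals. All errors below are 95% counting intervals. They cover counting error only, and not the spread between animals or libraries. Reads amplified by PCR are not independent molecules, so the intervals may be too narrow even for counting error.

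The intestinal epithelium is renewed from stem cells at the base of the crypts, which divide under a steady Wnt signal. Wnt proteins bind Frizzled receptors, free beta-catenin from a degradation complex and switch on target genes through TCF/LEF factors. R-spondins strengthen the signal by binding LGR receptors and clearing the ubiquitin ligases RNF43 and ZNRF3, which otherwise remove Frizzled from the cell surface. Many target genes, among them Axin2, Rnf43 and Znrf3, encode inhibitors that feed back on the pathway. Crypt base columnar stem cells are commonly recognised by Lgr5, Ascl2, Olfm4 and Smoc2. Prom1, Bmi1 and Msi1 have been used to mark stem or progenitor cells, although they are also expressed outside the crypt base.

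Olfm4 and Prom1 showed the clearest tissue differences, so the sequences in front of their transcripts are shown first. RefSeq promoter windows were available for 6 of the 10 genes, in 8 entries, and each was found once in the mm9 genome by its sequence. Of these 8, 7 begin their transcript at the first base of an exon block counted here, and Prom1 has an entry at each of its first 2 blocks. The 250 bases before block 2 lie between blocks 1 and 2, so they are intron sequence for a transcript that begins at block 1. They end in ctccctcccag, which has the form of an intron's 3′ end. Whether transcription starts at block 2 was not tested, so that window may not be a promoter. Each line runs 5′ to 3′ on the gene's strand, with 250 bases before the annotated transcript start in lower case and the 30 bases from it in capitals. The windows are at chr14:80399859-80400138 (plus strand) for Olfm4, and at chr5:44492946-44493225 and chr5:44485978-44486257 (minus strand) for the upstream and the downstream start of Prom1.
Olfm4: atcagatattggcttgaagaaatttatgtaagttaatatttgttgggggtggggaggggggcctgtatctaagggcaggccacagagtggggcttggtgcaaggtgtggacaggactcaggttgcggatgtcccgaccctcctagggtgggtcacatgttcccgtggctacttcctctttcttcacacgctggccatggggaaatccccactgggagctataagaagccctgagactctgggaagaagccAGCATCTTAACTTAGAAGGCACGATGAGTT
Prom1 upstream start: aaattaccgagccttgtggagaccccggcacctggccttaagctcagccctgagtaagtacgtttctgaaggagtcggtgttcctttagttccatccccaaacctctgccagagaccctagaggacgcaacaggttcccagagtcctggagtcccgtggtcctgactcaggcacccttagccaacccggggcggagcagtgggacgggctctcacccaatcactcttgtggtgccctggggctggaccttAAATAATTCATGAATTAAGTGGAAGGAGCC
Prom1 downstream start: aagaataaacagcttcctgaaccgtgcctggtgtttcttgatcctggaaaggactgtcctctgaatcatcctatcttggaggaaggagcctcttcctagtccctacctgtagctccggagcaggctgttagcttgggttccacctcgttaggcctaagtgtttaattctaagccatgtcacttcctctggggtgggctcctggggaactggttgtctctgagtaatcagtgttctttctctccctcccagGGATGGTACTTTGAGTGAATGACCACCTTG
Motifs were searched in the whole RefSeq windows of 300 bases, of which 280 are printed. The TCF/LEF motif, searched on both strands in the forms CTTTGAA and CTTTGAT as well as CTTTGTA and also CTTTGTT, was in 0 of the 8 RefSeq windows and in 16.9% of all 32851 promoter windows. The RBPJ motif of the Notch pathway, searched as TGGGAA on both strands, was in 3 of the 8 windows (Olfm4, the upstream start of Prom1 and Bmi1) and in 25.6% of all windows. These letters are a description of the windows alone.

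Reads from the cDNA pair outnumbered those from the other pair. The small intestine and colon libraries held 22484041 and 24798934 uniquely placed reads in the cDNA pair, against 2035386 and 3478387 in the ribosomal RNA-depleted pair. Total reads were 77504263 and 83302412 in the cDNA pair and 36419942 and 37466674 in the other. The share of reads placed was thus lower in the ribosomal RNA-depleted pair, and lowest in its small intestine library. Levels are given as RPKM, that is reads per 1000 bases of exon blocks and 1000000 uniquely placed reads. Labels were checked by markers. All 5 small intestine markers (Fabp2, Sis, Lct, Slc2a2, Alpi) were called higher in the libraries labelled small intestine and all 4 colon markers (Car1, Atp12a, Car4, Hoxb13) in those labelled colon, by both protocols. The summed RPKM of 5 smooth muscle markers (4 of them called) was 221 in small intestine and 834 in colon by cDNA, and 191 and 1793 by the other protocol, or 3.77-fold and 9.39-fold higher in colon, while that of 5 epithelial markers was 1.03-fold and 1.48-fold that in small intestine, with median log2 ratios of 0.19 and -0.13, so it had no common direction (0.822 and 1.17 under median-of-ratios scaling). The 6 pancreatic acinar markers ran in opposite directions, with 56.1-fold more in colon by cDNA (4 of the 6 at 0 reads in small intestine) and 9.61-fold more in small intestine by the other protocol. Their median log2 ratios were 8.54 and -8.41, and Cela1, at 503 and 293 RPKM in small intestine and colon, was the marker not called in the latter pair. The sum over 4 Paneth cell markers (3 called in each pair) was 36.5-fold and 7.57-fold higher in small intestine, and that over 5 leukocyte markers 2.33-fold and 1.38-fold. Fibroblast markers summed to 1.13-fold (0.899 under median-of-ratios scaling) and 3.67-fold the small intestine level in colon, and enteric neuron and glia markers to 2.30-fold and 5.19-fold more. Of 8 cycling cell markers 0 were called, with sums in colon 0.820 and 0.992 of those in small intestine and median log2 ratios of -0.18 and 0.21. Under median-of-ratios scaling these sums were 0.653 and 0.783 and the medians -0.51 and -0.13. Top2a was then called higher in small intestine in the ribosomal RNA-depleted pair. The part of these other cell types in the results below was not tested. In whole tissue, fewer cells of a type and less RNA per cell cannot be told apart.

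The 10 genes covered a wide range of levels, and the order differed between tissues at the top. In small intestine, Olfm4 was first by both protocols, at 397 RPKM (interval 391 to 404) by cDNA and 228 RPKM (212 to 245) in the ribosomal RNA-depleted library. In colon, Prom1 was first, at 91.9 RPKM (90.1 to 93.8) and 249.97 RPKM (242 to 258). Msi1 was last in 3 libraries. Between the extremes, intervals of neighbours often overlapped: in the small intestine cDNA library Lgr5 (1.62 RPKM), Ascl2 (1.57 RPKM) and Rnf43 (1.46 RPKM) had overlapping intervals. Znrf3 stood at 3.48 RPKM beside Bmi1 at 2.92 RPKM (2.56 to 3.32), but at 2.18 RPKM (1.94 to 2.44), below Bmi1, without its reads at a run of T described below. In the colon cDNA library the same held for Ascl2 (2.53 RPKM), Rnf43 (2.35 RPKM) and Bmi1 (1.92 RPKM). A read needs nearly its whole length inside a block, and reads could start on 72.9% of the exonic length of Msi1, 80.6% of that of Prom1 and 87.1% to 96.0% of the others, so levels of genes with many short exons are understated.

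**Figure D1:**
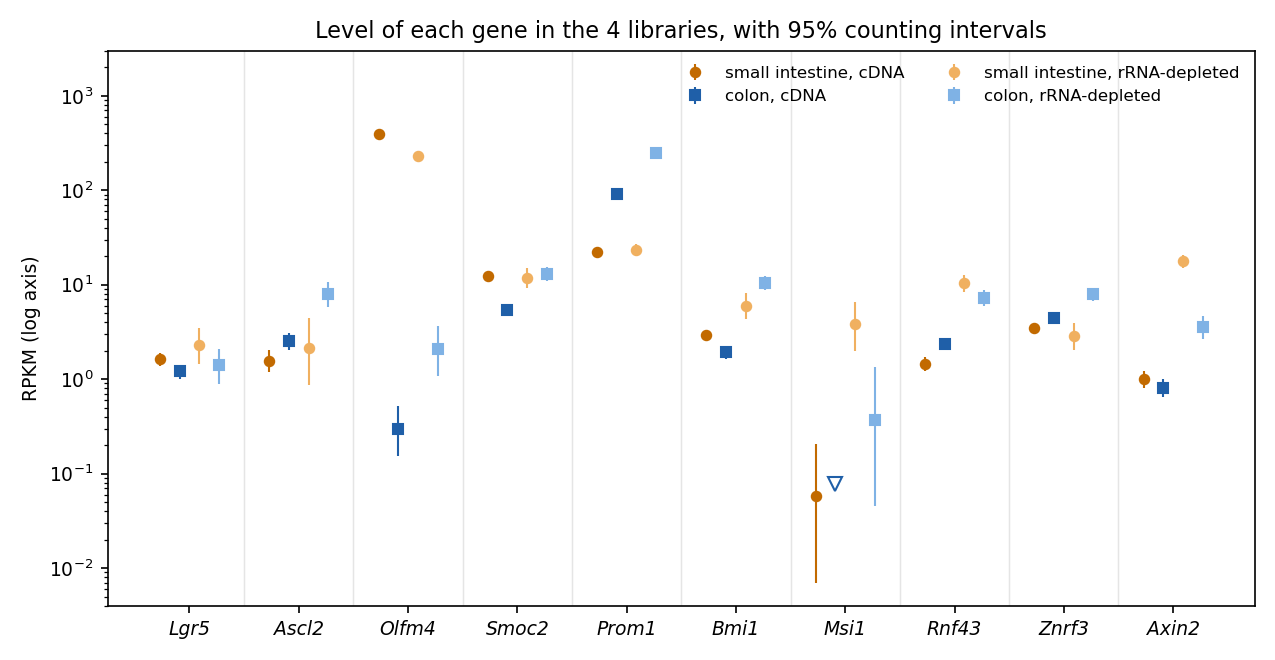
RPKM of the 10 genes (x axis) on a log y axis in the 4 libraries. Circles are small intestine, squares are colon, dark colors are the cDNA pair and light colors the ribosomal RNA-depleted pair. Bars are 95% exact Poisson intervals, and the open triangle marks 0 reads, drawn at the level of 3 reads. Olfm4 stands at 397 and 228 RPKM in small intestine and at 0.295 and 2.10 RPKM in colon, and Prom1 is highest in the colon libraries.

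Tissues were compared by the study's rule, which calls a gene when its RPKM in one tissue is at least 3 times the RPKM in the other after 1 RPKM is added to the divisor. In the cDNA pair, 1 of the 10 genes (Olfm4) was called higher in small intestine, as were 2.7% of the 16718 genes present in either library. Prom1 alone was called higher in colon, the share over all genes being 3.21%. In the ribosomal RNA-depleted pair, 2 of the 10 (Olfm4 and Axin2) were called higher in small intestine, against 3.72% of 15299 genes, and Prom1 alone higher in colon, against 6.63%. The median over the 10 genes of the log2 ratio (colon over small intestine, after 0.1 RPKM was added) was -0.34 by cDNA and -0.18 by the other protocol. The corresponding medians over all genes present were 0.37 and 0.42. Ratios of all genes fall by 0.33 and 0.34 on the log2 scale when the libraries are scaled by the median of ratios.

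A looser reading asks whether the counting interval of the ratio leaves out 1. By cDNA, 4 genes were then higher in small intestine (Lgr5, Olfm4, Smoc2, Bmi1), where 21.8% of all genes were, and 4 higher in colon (Ascl2, Prom1, Rnf43, Znrf3), where 48% were. By the other protocol, 4 were higher in small intestine (Olfm4, Msi1, Rnf43, Axin2) against 18.1% of all genes, and 4 in colon (Ascl2, Prom1, Bmi1, Znrf3) against 35.9%. With at most 1 color mismatch the upper limits for Msi1 (0.112, 0.00237 to 1.00107) and Rnf43 (0.700, 0.492 to 1.00012) reached just above 1. Only Olfm4 was on the small intestine side by both protocols, and Ascl2, Prom1 and Znrf3 were on the colon side by both, the shares over all genes being 10.2% and 26%. For Znrf3 by cDNA the side turned to small intestine without reads at a run of T, as described below, so that it then differed between protocols. Under median-of-ratios scaling Lgr5 and Axin2 were also on the small intestine side by both protocols, and the cDNA intervals of Ascl2 and Znrf3 held 1. That scaling moves all genes toward small intestine, and the shares over all genes were not counted under it. Bmi1 and Rnf43 changed side between protocols, as did 9.12% of all genes. Under median-of-ratios scaling the interval of Bmi1 in the ribosomal RNA-depleted pair held 1 (1.37, 0.963 to 1.97). With start points counted, the interval of Rnf43 in that pair held 1 (0.776, 0.555 to 1.09).

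**Figure D2:**
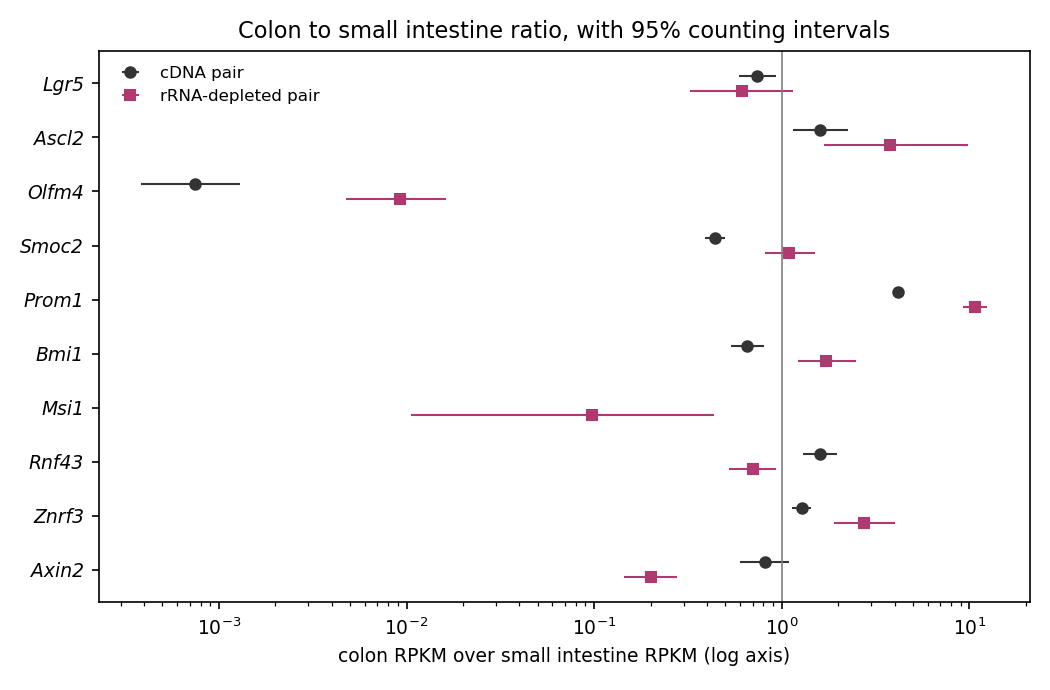
Ratio of colon RPKM to small intestine RPKM (log x axis) for each gene, with 95% exact conditional binomial intervals. Circles are the cDNA pair and squares the ribosomal RNA-depleted pair. Msi1 has no cDNA value, having 2 reads and 0 reads there. Olfm4 lies far to the left in both pairs, Prom1 to the right, and the symbols of Bmi1 and Rnf43 fall on different sides of 1.

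Among the genes of the crypt base columnar cells, Lgr5 was expressed at a low level in every library. Lgr5, the R-spondin receptor that defines these cells, had 172 reads in small intestine and 141 in colon by cDNA, and 22 and 23 reads in the ribosomal RNA-depleted libraries. These counts correspond to 1.62, 1.21, 2.29 and 1.40 RPKM in the same order. Small intestine exceeded colon 1.35-fold by cDNA (interval 1.07 to 1.69) and 1.63-fold by the other protocol (0.869 to 3.07), an interval that holds 1. Whether the interval held 1 changed with the processing. By cDNA, the colon to small intestine ratio was 0.853 (0.628 to 1.16) with at most 1 color mismatch and 0.819 (0.473 to 1.41) without the 3′-most block, both intervals holding 1. In the ribosomal RNA-depleted pair it was 0.483 (0.257 to 0.909) under median-of-ratios scaling, which leaves out 1. The gene lies on the minus strand of chromosome 10 at 114887370 to 115024836 in 18 exon blocks, of which the 3′-most took 82.0% and 80.1% of its cDNA reads and 68.2% and 73.9% of the others.

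Ascl2 had more reads in colon by both protocols. This transcription factor, itself a Wnt target that sets stem cell fate, had 57 and 101 reads by cDNA in small intestine and colon, and 7 and 45 reads by the other protocol. Its levels were 1.57 and 2.53 RPKM by cDNA and 2.13 and 8.03 RPKM in the ribosomal RNA-depleted pair. The colon to small intestine ratio was 1.61 (1.15 to 2.26) and 3.76 (1.68 to 9.89). Under median-of-ratios scaling the cDNA ratio was 1.28 (0.916 to 1.80), which holds 1. With the 3′-most of 3 blocks left out (minus strand of chromosome 7, 150152727 to 150155169), the ratios were 1.39 (0.724 to 2.72) and 1.27 (0.450 to 4.07), and both intervals held 1. The first lay within the interval of the value with the block, and the second below it.

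Olfm4 was abundant in small intestine and low in colon. Olfactomedin 4 is a secreted glycoprotein of crypt base cells whose transcription is known to respond to Notch. By cDNA, 14650 reads came from small intestine and 12 from colon, and by the other protocol 761 and 12. By level, this was 397 against 0.295 RPKM (0.152 to 0.515) and 228 against 2.10 RPKM (1.09 to 3.67). The excess in small intestine was 1347-fold (771 to 2607) by cDNA and 108.4-fold (61.7 to 211) by the other protocol. With start points counted in place of reads, which levels off in deeply covered genes, colon held 0.00420 and 0.0239 of the small intestine level.

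Reads of Olfm4 covered 5 of its 7 blocks (plus strand of chromosome 14, 80400109 to 80421737). Block 1, which begins at the transcript start printed above, had 494 reads in small intestine by cDNA and 1 in colon, and 56 and 3 by the other protocol. The 3′-most block, of 812 bases, held 9629 of the 14605 exon reads of the small intestine cDNA library. Block 6, of 86 bases at 80417945 to 80418030, had 0 reads in all 4 libraries. It and block 5, of 13 bases and too short for any read, belong to 1 of the 2 annotated coding transcripts, so no read was placed on the exon blocks particular to that transcript.

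Smoc2 was higher in small intestine by cDNA, while the interval of the other protocol held 1. SMOC2 is a secreted calcium-binding matrix protein of the stem cell signature. Its gene (plus strand of chromosome 17, 14416513 to 14541797, 13 blocks) gave 785 and 383 reads in small intestine and colon by cDNA, and 68 and 128 by the other protocol, or 12.3, 5.45, 11.8 and 13.0 RPKM. Small intestine was 2.26-fold higher by cDNA (1.998 to 2.56). In the ribosomal RNA-depleted pair the colon to small intestine ratio was 1.10 (0.815 to 1.501), which moved to 0.870 under median-of-ratios scaling. The 2 small intestine libraries lay close together, and the 2 colon libraries differed 2.38-fold (1.94 to 2.92).

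Prom1 was the member most clearly higher in colon. It encodes prominin 1 (CD133), a cholesterol-binding glycoprotein of membrane protrusions, from 29 blocks on the minus strand of chromosome 5 (44384861 to 44492975). By cDNA it had 2026 reads in small intestine and 9365 in colon, and by the other protocol 194 and 3571. The levels were 21.9 and 91.9 RPKM, then 23.2 and 249.97 RPKM, so both small intestine values were alike and both colon values above them. Colon exceeded small intestine 4.19-fold (3.99 to 4.399) and 10.8-fold (9.32 to 12.5). Counting start points in place of reads gave 2.25-fold (2.12 to 2.39), below the calling rule, and 3.99-fold (3.26 to 4.93).

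Reads of Prom1 piled up at single start points. In the ribosomal RNA-depleted colon library, 2 start points in coding exons took 338 and 304 of 3523 exon reads, 18.2% together. They lay in block 3 at chr5:44454367-44454401 and in block 9 at chr5:44428832-44428866, and both were read on the gene's minus strand. The same positions had 29 and 2 reads in small intestine by that protocol, and 0 to 2 reads in the cDNA libraries. They took 31 of the 194 exon reads of the small intestine library (16.0%), and without them the colon to small intestine ratio was 10.5 (8.98 to 12.4), close to the value with them. As their shares were similar in both tissues, leaving them out could move the ratio little. In all, 60 start points held at least 10 reads in colon by that protocol, against 2 in small intestine, and the others were not left out. The stretches of 35 bases under these reads are shown because they carry the pile-ups.
Prom1 block 3: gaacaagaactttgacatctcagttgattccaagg
Prom1 block 9: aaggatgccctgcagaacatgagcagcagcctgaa
Elsewhere the gene was covered along its whole length, with reads in 26 of 29 blocks of the colon libraries, the blocks without reads being 27, 18 and 24 bases long.

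The first 2 blocks of Prom1, each of which has a promoter entry, were unequally covered. Block 1, of 89 bases at 44492887 to 44492975, had 2 and 9 reads by cDNA in small intestine and colon, and 1 and 14 by the other protocol. Block 2, of 374 bases, had 193, 741, 8 and 169 reads. Per length, block 2 stood at 79.9 RPKM against 4.08 RPKM for block 1 in the colon cDNA library, and at 130 against 45.2 RPKM in the ribosomal RNA-depleted one. Reads of block 2 were not assigned to a start, so these levels do not measure how often either start was used. Block 1 overlaps an exon of another annotated coding gene on the opposite strand. All exon reads of Prom1 in the strand-keeping libraries lay on its own strand.

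Bmi1 changed direction with the protocol. BMI1, also named PCGF4, is a subunit of Polycomb repressive complex 1. Its reads numbered 236 and 171 in small intestine and colon by cDNA and 44 and 130 by the other protocol, for 2.92, 1.92, 6.01 and 10.4 RPKM. Small intestine was 1.52-fold higher by cDNA (1.24 to 1.86), and colon was 1.73-fold higher by the other protocol (1.22 to 2.49). Under median-of-ratios scaling the latter ratio was 1.37 (0.963 to 1.97). Without the 3′-most block the colon to small intestine ratio was 0.837 (0.349 to 1.99) by cDNA, which holds 1, and 3.26 (1.44 to 8.64) by the other protocol. The 3′-most of 10 blocks (plus strand of chromosome 2, 18598645 to 18608256) held 94.5% and 92.9% of the cDNA reads, and 84.1% and 70.0% of the others.

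Msi1 had few reads in every library, and at most 2 in 3 of them. Musashi 1 is an RNA-binding protein that represses translation of its target mRNAs. By cDNA it had 2 reads in small intestine and 0 in colon, where 3 reads would be 0.0860 and 0.0780 RPKM, so no ratio is given. The ribosomal RNA-depleted small intestine library held 12 reads at 9 start points (3.80 RPKM, 1.96 to 6.64) and the colon library 2 reads at 1 start point (0.371 RPKM, 0.0449 to 1.34). The colon to small intestine ratio of these counts was 0.0975 (0.0106 to 0.438). Reads lay on 3 of 15 blocks in small intestine (plus strand of chromosome 5, 115879694 to 115904211), and the colon reads shared the start point that held 3 of the small intestine reads.

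Of the 3 feedback inhibitors of the Wnt pathway, Rnf43 changed side between protocols. Rnf43, a membrane ubiquitin ligase that removes Frizzled receptors, had 142 and 251 reads in small intestine and colon by cDNA, and 91 and 109 by the other protocol. Its levels were 1.46 and 2.35 RPKM, then 10.4 and 7.27 RPKM, so the tissue with more Rnf43 was colon in the first pair and small intestine in the second. Colon was 1.603-fold higher by cDNA (1.30 to 1.98), and small intestine was 1.43-fold higher by the other protocol (1.07 to 1.90). The opposite sides remained with the 3′-most block left out (1.64 and 0.709) and under median-of-ratios scaling (1.28 and 0.554). With start points counted, the ratio in the ribosomal RNA-depleted pair was 0.776 (0.555 to 1.09). The gene spans 87476589 to 87549041 on the plus strand of chromosome 11 in 10 blocks.

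Znrf3, the paralogue of Rnf43 with the same role, carried a pile-up in the cDNA libraries. The gene (minus strand of chromosome 11, 5176332 to 5344850) had 494 and 697 reads by cDNA in small intestine and colon, 3.48 and 4.46 RPKM, and a colon to small intestine ratio of 1.28 (1.14 to 1.44). Of these, 185 and 482 reads overlapped a run of 30 T on the gene's strand in its annotated 3′ untranslated region (chromosome 11, 5177570 to 5177599, minus strand), and 265 colon reads shared 1 start point there. Without reads over the run, 309 and 215 reads remained, at 2.18 and 1.37 RPKM, and the ratio was 0.631 (0.528 to 0.753). It was 0.597 (0.473 to 0.752) when matches with more than 1 color mismatch were dropped. Counting start points in place of reads gave 0.735 (0.616 to 0.877). So the tissue that appeared higher turned under these 3 settings, of which only the removal of reads over the run was chosen after the pile-up had been seen. Leaving out the whole 3′-most block, which holds the run, kept 1 and 8 reads and gave 7.25 (0.972 to 322), toward colon with an interval that holds 1.

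The ribosomal RNA-depleted libraries had 0 and 1 reads of Znrf3 at that run. There, the gene had 37 and 173 reads, 2.88 and 7.89 RPKM, and colon was 2.74-fold higher (1.91 to 4.02). Leaving out the 3′-most of its 9 blocks gave 5.52-fold (2.53 to 14.3). Among the other genes, runs of at least 12 A or T were found in the last blocks of Lgr5 and Axin2, with at most 2 reads each in any library.

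Axin2 was low in both tissues by cDNA, and higher in small intestine by the other protocol. AXIN2 is a scaffold of the beta-catenin degradation complex, and its gene is a widely used reporter of Wnt activity. It had 95 and 85 reads by cDNA in small intestine and colon, and 154 and 53 in the much smaller ribosomal RNA-depleted libraries. The levels were 0.992 and 0.805 RPKM, then 17.8 and 3.58 RPKM. Small intestine was 1.23-fold higher by cDNA (0.910 to 1.67), where the interval holds 1, and 4.97-fold higher by the other protocol (3.61 to 6.92). Under median-of-ratios scaling the colon to small intestine ratio by cDNA was 0.646 (0.477 to 0.876), which leaves out 1. Within small intestine the ribosomal RNA-depleted level was 17.9-fold the cDNA level (13.8 to 23.4), and within colon it was 4.45-fold (3.09 to 6.34).

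Where the reads of Axin2 fell differed as well. Of its 11 blocks (plus strand of chromosome 11, 108781663 to 108812095), the 3′-most held 92.6% and 80.0% of the cDNA reads but 39.2% and 53.8% of the others. Outside that block only 7 and 17 reads were left by cDNA, with a colon to small intestine ratio of 2.20 (0.868 to 6.28), and 93 and 24 by the other protocol. The share in the 3′-most block was higher by cDNA in both tissues for 9 of the 9 genes compared, Msi1 having too few reads. The same count over all genes was not made, and some of these differences rest on few reads. For Olfm4 in colon they were 7 of 12 exon reads by cDNA and 6 of 12 by the other protocol. The share in the 3′-most block was 98.9% to 99.8% for Znrf3, against 61.8% to 81.1% by the other protocol, and 59.6% to 60.6% for Rnf43, against 21.1% to 22.2%. Oligo-dT priming starts cDNA at the 3′ end, whereas fragmented RNA is read along its length. The part of this in the differences between the protocols was not tested.

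**Figure D3:**
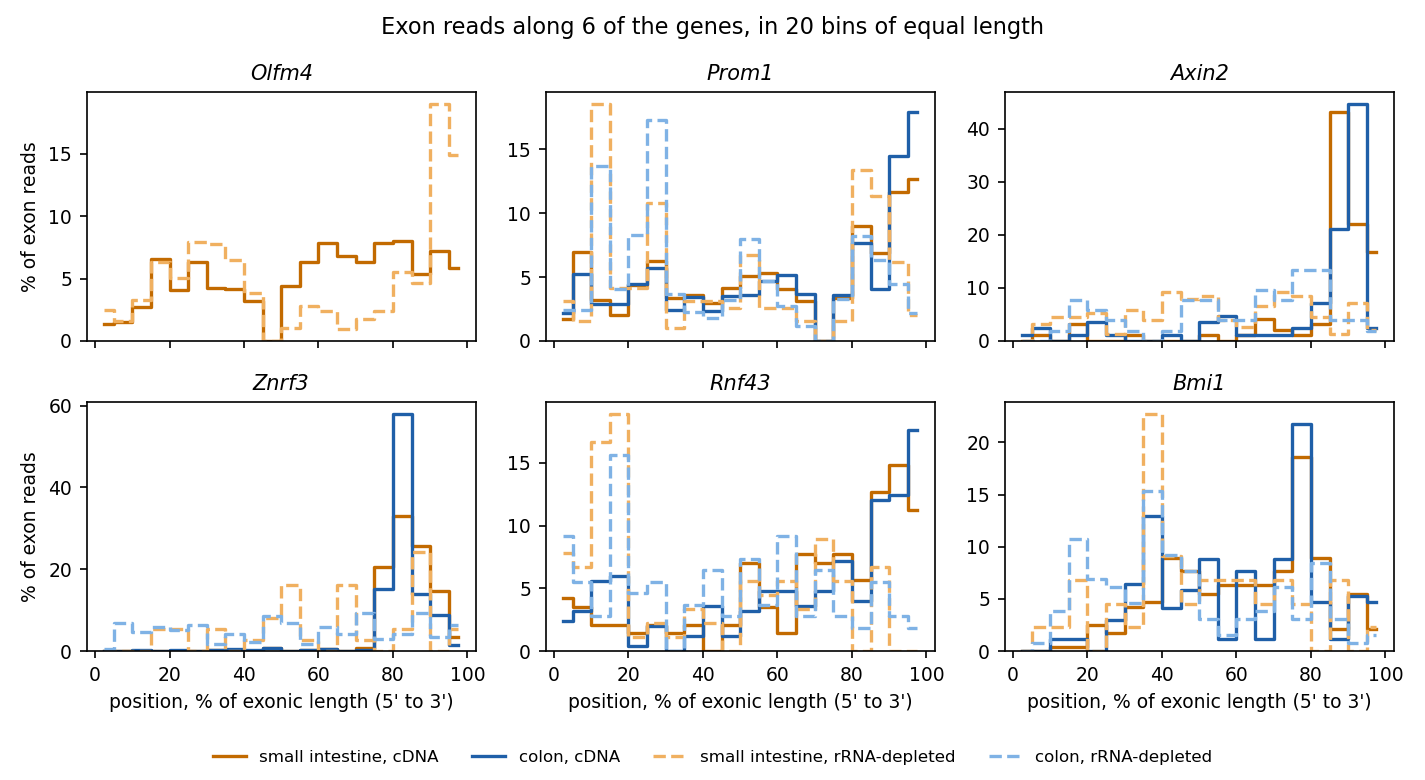
Exon reads of 6 genes along the joined exon blocks, 5′ to 3′, in 20 bins of equal length (x axis, percent of exonic length), as percent of the library's exon reads on that gene (y axis). Solid lines are the cDNA pair, dashed lines the ribosomal RNA-depleted pair, and libraries with fewer than 30 exon reads on a gene are not drawn. Reads of Axin2 and Znrf3 by cDNA crowd toward the 3′ end, the peak of Znrf3 being the run of T, and the dashed lines of Prom1 show the pile-ups in blocks 3 and 9.

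Other genes of the crypt and the Wnt pathway were counted by fixed lists, some genes being in more than 1 list. Of 16 further genes of crypt base stem cells, 1 was called higher in colon by cDNA and 3 by the other protocol, beside 3.21% and 6.63% of all genes, with 0 called higher in small intestine, beside 2.7% and 3.72%. The median log2 ratios of this list were 0.54 and 0.60, beside 0.37 and 0.42 over all genes. Aqp4, a water channel, was called higher in colon in both pairs, at 5.81 and 43.1 RPKM by cDNA and 5.51 and 158 RPKM by the other protocol in small intestine and colon. Named after their values were seen, Cd44, a hyaluronan receptor (8.17 and 32.5 RPKM), and Ephb3, an ephrin receptor that places cells along the crypt (2.02 and 10.4 RPKM), were called in the ribosomal RNA-depleted pair. Under median-of-ratios scaling Aqp4 alone was called in either pair.

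Of 18 Wnt targets and feedback genes, 1 was called higher in small intestine and 2 higher in colon by cDNA (2.7% and 3.21% of all genes), and 0 and 2 by the other protocol (3.72% and 6.63%). The list's median log2 ratios were -0.01 and 0.18, beside 0.37 and 0.42 over all genes, and they were -0.24 and -0.08 under median-of-ratios scaling. Cdx1, an intestinal homeobox factor, was called higher in colon in both pairs, at 13.2 and 54.6 RPKM in small intestine and colon by cDNA and 56.5 and 279 RPKM by the other protocol. The other calls, named after their values were seen, were Sfrp1, a secreted Wnt antagonist (29.3 and 6.90 RPKM by cDNA, but 3.93 and 6.64 RPKM by the other protocol), Cdx2, a homeobox factor (13.0 and 48.0 RPKM by cDNA, but 79.0 and 39.3 RPKM by the other protocol), and Wif1, a secreted Wnt inhibitor (0 reads and 3.59 RPKM by the other protocol). Sp5, a zinc finger transcription factor also named after its values were seen, was low and not called. It had 48 and 5 reads by cDNA (1.02 and 0.0961 RPKM) and 10 and 0 reads by the other protocol (2.34 RPKM in small intestine, with 3 reads in colon equal to 0.411 RPKM). For Sfrp1 and Cdx2 the tissue with the higher level thus differed between protocols, and Cdx2 was not called under median-of-ratios scaling.

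On the receptor side, 0 of 8 genes present were called by cDNA and 0 of 7 by the other protocol, in either direction, beside the same shares of all genes. Lgr4, the broadly expressed R-spondin receptor, had the highest value of this list, with 20.1 and 16.4 RPKM by cDNA and 40.2 and 81.2 RPKM by the other protocol in small intestine and colon. In small intestine by ribosomal RNA depletion, its interval (36.4 to 44.3) overlapped that of the Frizzled receptor gene Fzd5, named after its values were seen (39.6 RPKM, 36.4 to 43.0). The list's medians were -0.03 and 0.14, beside 0.37 and 0.42 over all genes, and -0.29 and -0.20 under median-of-ratios scaling. In the beta-catenin complex and its nuclear partners, 1 of 11 genes was called higher in colon in each pair (3.21% and 6.63% of all genes) and 0 in small intestine (2.7% and 3.72%), with medians of 0.20 and 0.06, beside 0.37 and 0.42 over all genes. Under median-of-ratios scaling both turned sign, to -0.13 and -0.28. The gene called was Tcf7l1, a TCF factor known mainly as a repressor, at 3.74 and 24.9 RPKM by cDNA and 0.529 and 7.23 RPKM by the other protocol. The value of 0.529 RPKM is 3 reads, and the small intestine cDNA value is 234 reads at 74 start points. Of the 13 blocks of Tcf7l1, 3 overlap another coding gene. Ctnnb1, which encodes beta-catenin, was the most abundant of the list, at 93.3 and 107 RPKM and at 181 and 263 RPKM.

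**Figure D4:**
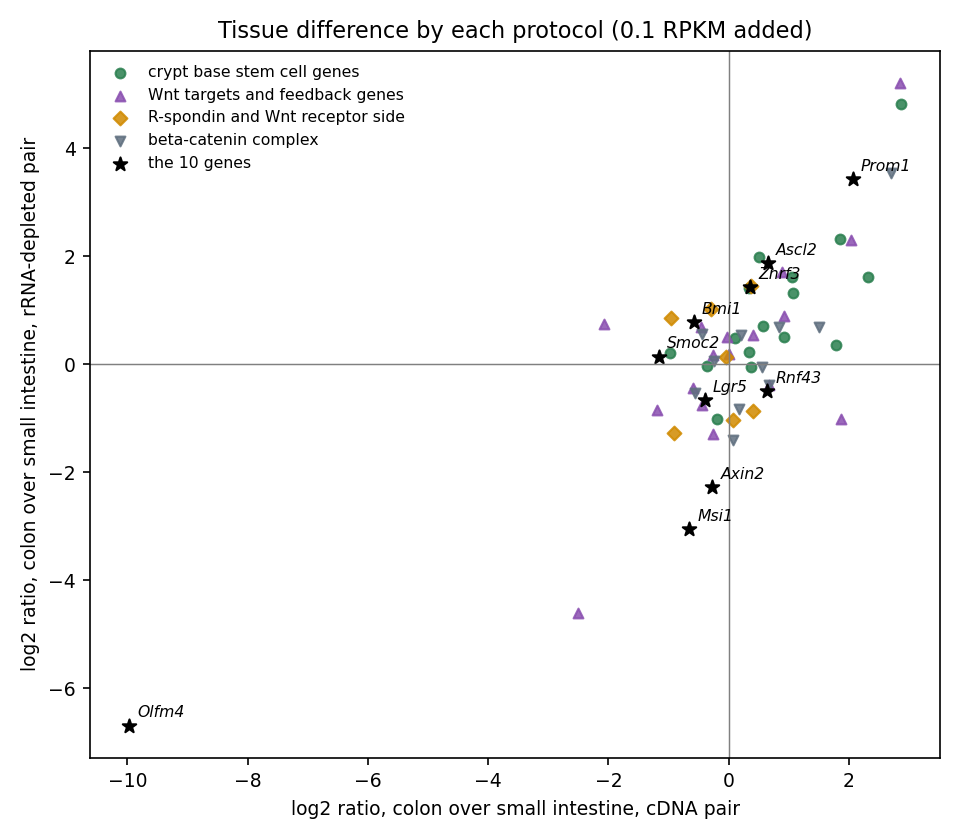
Log2 ratio of colon to small intestine in the cDNA pair (x axis) and in the ribosomal RNA-depleted pair (y axis), after 0.1 RPKM was added, for the 10 genes (stars, named) and for genes of the 4 pathway lists present in both pairs. Olfm4 lies farthest to the lower left, where Sp5 of the Wnt target list (-2.51 and -4.61) also lies, and Prom1 at the upper right beside genes of several lists.

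Close relatives of the 10 genes are given by level alone. Over the 4 libraries, Lgr4 ranged from 16.4 to 81.2 RPKM, above Lgr5 in each, and Lgr6 had 0 reads in all. Ascl3, a relative of Ascl2, stood at 0 to 0.696 RPKM. Of those of Olfm4, Olfm1 ranged from 0.545 to 3.86 RPKM, Olfm2 from 0 to 1.70 RPKM and Olfm3 from 0 to 0.419 RPKM, each lowest in a small intestine library. Smoc1 stood at 0.658 to 1.27 RPKM, below Smoc2, and Prom2 at 0 to 0.0189 RPKM, below Prom1.

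Of the Polycomb ring finger genes related to Bmi1, Pcgf1 ranged from 1.69 to 16.4 RPKM, Pcgf2 from 0.251 to 6.79 RPKM, Pcgf3 from 5.01 to 26.4 RPKM, Pcgf5 from 5.13 to 14.7 RPKM and Pcgf6 from 2.80 to 6.09 RPKM. Msi2, the paralogue of Msi1, had 3.89 and 5.604 RPKM by cDNA in small intestine and colon and 8.48 and 33.9 RPKM by the other protocol, and was called higher in colon in the latter, though not under median-of-ratios scaling. Axin1, the constitutive counterpart of Axin2, had 5.26 and 8.41 RPKM by cDNA and 11.3 and 8.67 RPKM by the other protocol. Of the 4 libraries, only small intestine by ribosomal RNA depletion held more Axin2 than Axin1 per length.

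The genes whose levels over the 4 libraries were most like those of Lgr5 were found among 12538 genes with at least 100 reads, by the distance of log2 levels. Nearest was Smarca5-ps (distance 0.12), a pseudogene whose reads cannot be told apart with certainty from those of its parent gene. Ggt5, a gamma-glutamyltransferase (0.31), Brip1, a DNA repair helicase (0.48), Gfod1 (0.52) and Zranb3, a DNA translocase (0.54), followed. Their RPKM ran from 0.966 to 3.17 over the 4 libraries. With 4 values a gene, this likeness is a description of levels alone.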

How the data were processed

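The authors deposited placements of single reads of 35 colors, reports of reads by mismatches, and tables of exon and junction positions, with no normalized values. They had matched the reads to the mm9 RefSeq exon blocks and to exon junctions, allowing 3 color mismatches, and had dropped reads placed more than once. The study's methods give polyadenylated RNA for fragmentation, and it reports far more and longer reads for its RNA-fragmented libraries. The ribosomal RNA-depleted libraries here held 36419942 and 37466674 total reads in small intestine and colon. They are thus not the full set of reads it analysed by that protocol. Whether they are part of that set or separate libraries cannot be told from the labels.

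From these, reads whose start lay in an exon block (3 bases of tolerance) or on a junction were counted per gene, blocks being joined by shared junctions and named from GENCODE M1. Junctions took under 1% of reads, 1.14% to 2.32% of which had 12 bases on each side, so splicing was not read from them. Genes count as present above 0.01 RPKM and at 2 start points in either library of a pair. Blocks shorter than 29 bases hold no reads. Ratios have exact conditional binomial intervals and levels exact Poisson intervals. Python 3.11.15, NumPy 2.4.6, pandas 2.3.3 and SciPy 1.17.1 were used. The calling rule and the ratio intervals were run on simulated independent counts. Those counts held no pile-ups or PCR copies, so that run says nothing of such reads here.

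The 10 genes and all lists were chosen with earlier results of these data known. Named from the lists were genes called alike in both pairs, the most abundant gene, and the close relatives. Other genes named from the lists (Cd44, Ephb3, Sfrp1, Cdx2, Wif1, Fzd5, Sp5) were chosen after their values were seen. A further relative and a further marker are not reported here.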

Additional observations from a re-analysis of the deposited data

Results flagged for a closer look

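Bmi1 and Rnf43 were picked out because their colon to small intestine ratios lay on opposite sides of 1 in the 2 protocols, with both counting intervals leaving out 1. For Bmi1 the ratio was 0.657 by cDNA and 1.73 in the ribosomal RNA-depleted pair. For Rnf43 it was 1.603 and 0.701. Such opposite sides were seen for 9.12% of all genes. Znrf3 was not picked out, but it met the same condition without reads over runs of A or T. Its ratios were then 0.631 (0.528 to 0.753) by cDNA and 2.72 (1.90 to 3.99) in the other pair. It also met it with at most 1 color mismatch (0.597 and 2.34) and by start points (0.735 and 3.53). The Bmi1 interval held 1 under median-of-ratios scaling in the ribosomal RNA-depleted pair, and without the 3′-most block by cDNA. The Rnf43 interval in the ribosomal RNA-depleted pair held 1 by start points and with at most 1 color mismatch. With 1 library per tissue and protocol, the difference between protocols was not tested, and animal, RNA selection and library protocol cannot be told apart.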

How the results depend on the processing

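Olfm4 was called higher in small intestine in both pairs under all alternatives run. With start points counted in place of reads, which levels off in deeply covered genes, 0 genes were called higher in colon by cDNA, Prom1 being lost. In the ribosomal RNA-depleted pair, 2 were called higher in colon with at most 1 color mismatch or a penalty of 0.1 RPKM (Ascl2 added) and without the 3′-most block (Znrf3 added), and 3 at a 2-fold threshold (both added). Axin2 kept its call there in every setting, and Msi1, with 12 and 2 reads, was added by size factors, start points, the smaller penalty and the 2-fold threshold. The shares of all genes called were not counted under these alternatives. Whether the 10 genes were called more often than all genes there is thus not known. The median log2 ratio of the 10 genes ranged from -0.64 to 0.10 by cDNA, above 0 only without the 3′-most block, and from -0.52 to -0.03 in the other pair. Of the ratios of single genes, 123 stayed within the counting interval of the value reported and 21 moved outside it, 8 of them without the 3′-most block and 6 under size factors. The cause of these moves was not tested. Many of the 123 could not move, because some settings leave most genes as they were. Leaving out shared blocks touches Prom1 alone, and runs of A or T lie only in Lgr5, Znrf3 and Axin2. The tally is therefore no measure of stability. Ratios crossed 1 for Znrf3 by cDNA (0.597 with at most 1 mismatch, 0.735 by start points, 0.631 without reads over runs of A or T), for Axin2 by cDNA (2.20 without the 3′-most block) and for Smoc2 in the ribosomal RNA-depleted pair (0.870 by size factors).

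Leaving out reads over runs of A or T, or at the 2 most used start points of Prom1, was chosen after seeing the data. A fit of tissue with protocol as a block was not run here. In the ribosomal RNA-depleted pair, single libraries held 2 to 45 reads of Lgr5, Ascl2 and Msi1.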
